A study of Mus musculus with 10 samples.

Results

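Stretches of the genome on which regions bound by HEB lie close together were described in mouse embryonic stem cells (ESCs). HEB is the basic helix-loop-helix transcription factor encoded by Tcf12, profiled by chromatin immunoprecipitation and sequencing (ChIP-seq). The regions of the ESC HEB list were sorted along each chromosome, neighbours separated by at most 12.5 kb were joined into a chain, and chains of at least 5 regions were kept. This gave 480 dense chains that held 3430 of the 17222 ESC HEB regions (19.9%). The other 13792 regions were in 6906 chains of 1 region or in 2769 chains of 2 to 4. Positions of the ESC HEB regions chose the chains, so their number, length and tag content are given as descriptions.

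The deposited lists came from CGR8 ESCs, a mouse line used here at passages 18 to 25, and from endoderm derived from them. ESC+SB cells were CGR8 ESCs that had received 10 µM SB431542 for 24 hours, an inhibitor of the type I receptor kinases of TGF-beta, activin and Nodal, and they gave an HEB list. Endoderm cells were CGR8 cells moved to serum-free medium, given 100 ng/ml human Activin A from day 2 and harvested at day 4, and they gave an HEB and a SMAD2/3 list. Endoderm+SB cells were differentiating CGR8 cells with 10 µM SB431542 for 48 hours from day 2 and harvested at day 4, and they gave an HEB list. The labels name Activin A and SB431542 together for this arm and give no separate Activin A dose. ESCs were untreated CGR8 cells in serum and leukaemia inhibitory factor without feeders, and they gave an HEB and a SMAD2/3 list. Each group had 1 ChIP library and its cells 1 input library, so every difference below compares single libraries, has no replicate check and carries no p-value. Binding in fewer cells and weaker binding per cell cannot be told apart in such data, and the labelled cell states could not be checked by expression in these region lists.

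The lists held 16769 regions for ESC+SB HEB, 18981 for Endoderm HEB, 11033 for Endoderm SMAD2/3, 10147 for Endoderm+SB HEB, 4111 for ESC SMAD2/3 and 17222 for ESC HEB. ChIP tags within listed regions summed to between 933126 for ESC SMAD2/3 and 5051930 for Endoderm HEB, with 4508630 for ESC+SB HEB and 4810688 for ESC HEB. The smallest peak height, the maximum ChIP signal of a region as the authors give it, was 28.0 in the ESC+SB HEB list and 25.0 in the other 5 lists. Tags and heights were not scaled between libraries, and the lists of ESC SMAD2/3 and ESC HEB regions shared an input: 87 of 100 region pairs with edges within 10 bp had identical background tags.

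E proteins such as HEB pair with one another or with tissue-specific basic helix-loop-helix partners and bind E-boxes, the sequence CANNTG, while Id proteins pair with them and keep them off DNA. Nodal and activin bind cell-surface receptors whose kinase activity phosphorylates SMAD2 and SMAD3, which then enter the nucleus with SMAD4 and bind DNA with partner factors. Polycomb repressive complexes keep developmental regulators, Hox clusters among them, silent in ESCs. Genomic stretches with many transcription factor sites near one another are known in ESCs both at genes of the pluripotent state and at Polycomb-bound developmental genes.

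Mature microRNAs listed at dense chains are shown first, since they lie in chains of contrasting kinds. The Hox clusters hold miR-10a, miR-10b, miR-196a and miR-196b, and chains rich in SMAD2/3 hold miR-291a, of the ESC-specific miR-290 cluster, and miR-181c with miR-181d. Of 14 microRNA genes listed for chain regions, 13 were matched by symbol to RefSeq sequences used here (GRCm38.p6), with 23 mature sequences and 20 distinct seeds. Capitals mark the seed, bases 2 to 8.
miR-10a-5p: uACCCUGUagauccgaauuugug
miR-10b-5p: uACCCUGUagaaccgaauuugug
miR-196a-5p: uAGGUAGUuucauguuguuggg
miR-196b-5p: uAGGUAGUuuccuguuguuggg
miR-181c-5p: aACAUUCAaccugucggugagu
miR-181d-5p: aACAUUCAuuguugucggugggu
miR-291a-3p: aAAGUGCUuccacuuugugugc
The miR-10a and miR-10b sequences share 1 seed, as do miR-196a with miR-196b and miR-181c with miR-181d. The first pair links the Hoxb and Hoxd chains, the second the Hoxc and Hoxa chains, and miR-181c with miR-181d comes from 1 chain. In GRCm38.p6 the printed sequences lie at chr11:96317186-96317208 (plus strand) for miR-10a-5p, chr2:74726074-74726096 (plus strand) for miR-10b-5p, chr15:102973365-102973386 (plus strand) for miR-196a-5p, chr6:52230129-52230150 (minus strand) for miR-196b-5p, chr8:84178924-84178945 (minus strand) for miR-181c-5p, chr8:84178759-84178781 (minus strand) for miR-181d-5p and chr7:3218968-3218989 (plus strand) for miR-291a-3p.

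Promoter windows of 3 genes whose starts lie under chain regions are shown with their E-boxes, though a window is not the whole bound region. Tdgf1, the Nodal co-receptor Cripto, stands for the chains with SMAD2/3, and Pax9 and Hoxb1, transcription factors silenced by Polycomb in ESCs, for chains with none or few. In GRCm38.p6 these windows are chr9:110946109-110946408 (minus strand) for Tdgf1, chr12:56695221-56695520 (plus strand) for Pax9 and chr11:96365508-96365807 (plus strand) for Hoxb1. Each runs from 250 bases before to 50 after the RefSeq start (GRCm38.p6), with E-boxes in capitals. In mm9 the ESC HEB region over the start of Tdgf1 is chr9:110848482-110850923, that of Pax9 is chr12:57795214-57799142 and that of Hoxb1 is chr11:96226790-96228528. The Hoxb1 region was low, with a height of 27.4 against a minimum of 25.0 in the list, while those of Tdgf1 and Pax9 had 195 and 395.
Tdgf1: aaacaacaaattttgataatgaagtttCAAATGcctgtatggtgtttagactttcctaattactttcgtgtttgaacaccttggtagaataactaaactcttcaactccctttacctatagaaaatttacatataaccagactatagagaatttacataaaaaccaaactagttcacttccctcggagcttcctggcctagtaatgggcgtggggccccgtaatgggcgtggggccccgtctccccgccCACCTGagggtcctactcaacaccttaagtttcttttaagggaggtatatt
Pax9: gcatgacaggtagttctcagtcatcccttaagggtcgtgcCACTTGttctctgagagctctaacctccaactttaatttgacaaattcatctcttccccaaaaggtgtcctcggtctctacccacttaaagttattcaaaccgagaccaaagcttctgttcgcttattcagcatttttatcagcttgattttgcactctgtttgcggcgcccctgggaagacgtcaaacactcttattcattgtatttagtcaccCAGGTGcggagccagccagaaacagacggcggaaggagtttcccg
Hoxb1: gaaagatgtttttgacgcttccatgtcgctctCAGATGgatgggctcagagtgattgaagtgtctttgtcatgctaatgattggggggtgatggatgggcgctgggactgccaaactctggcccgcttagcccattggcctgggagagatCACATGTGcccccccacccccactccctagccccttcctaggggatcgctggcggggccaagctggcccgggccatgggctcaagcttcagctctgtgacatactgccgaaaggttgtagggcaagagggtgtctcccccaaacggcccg
Tdgf1 and Pax9 each had 2 matches to CANNTG, of which 1 was CAGGTG or its reverse complement CACCTG, and Hoxb1 had 3 with neither form, a pair of which overlap. For shares over promoters, the first listed window of each gene was used, which need not lie under the HEB region. Over 27025 such RefSeq promoters of this length, 72.1% held CANNTG and 5413 held CAGGTG on either strand, so such matches are common. CANNTG was in 62.6% of the promoters of genes with a 5′ end in a chain region (129 of 206, 55.6 to 69.2%) and in 67.5% of those in other ESC HEB regions (930 of 1378, 64.9 to 70.0%). GC content was 62.2% and 61.0% in these groups and 53.6% over all promoters. As a comparison of the set this check is void, because 206 of the 281 such chain genes had a promoter sequence, too small a share.

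The chains spanned 11.9 Mb in sum and carried 1447881 ChIP tags, which was 30.1% of the tags and 26.1% of the covered bases of the ESC HEB list. A chain had a median of 6 regions, a span of 22.4 kb (3.26 to 125 kb) and 2214 ChIP tags (633 to 26102) against 208 input tags (54 to 1764). Bound regions covered a median of 21.7% of a span, from 6.43 to 91.2%. Most chains were small: 173 had 5 regions, 350 had 5 to 7, 100 had 8 to 12 and 30 had 13 or more. In a median chain the tallest region carried 31.8% of the tags, and this share ran from 4.82% in the Hoxb chain to 86.4% in the Tulp1 chain.

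**Figure D1:**
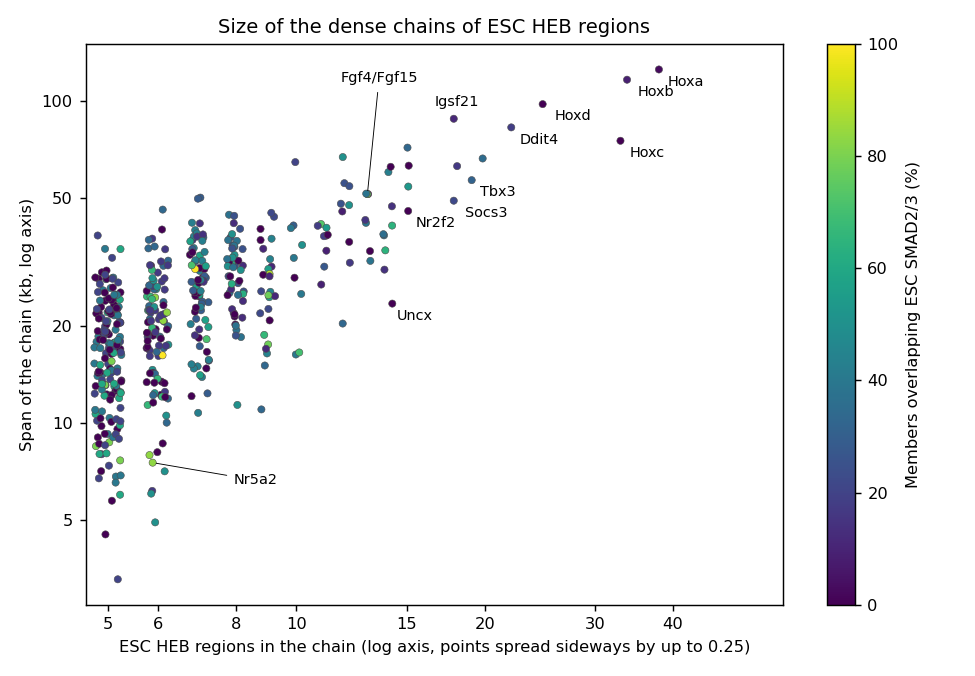
Each point is 1 of the 480 dense chains, with its number of ESC HEB regions on the horizontal axis and its span in kb on the vertical axis (both log scales), coloured by the percentage of its regions that overlap an ESC SMAD2/3 region. The 4 largest Hox chains stand at the upper right with 25 to 38 regions and 0 to 8.82% overlap, while the Nr5a2 chain packs 6 regions into 7.51 kb.

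The rule cut through a continuous range of densities. The largest gap joined equalled the limit of 12.5 kb and the smallest gap not joined was 12514 bp, and 94 gaps fell within 500 bp below the limit against 70 within 500 bp above it. The 173 chains of 5 regions had a median of 1674 tags and 23.9% of their regions overlapped ESC SMAD2/3, whereas the 325 chains of 4, just outside the rule, had 1067 tags and 25.0%.

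Regions in chains were taller and wider than other ESC HEB regions, values from the list that the rule used. Their median peak height was 43.9 against 36.4, their median width 641 bp against 492 bp and their median ChIP tags 243 against 166, with 28 against 22 input tags. They lay within 1 kb of a listed gene's 5′ end in 14.8% of cases (95% interval 13.7 to 16.1%), against 18.5% (17.8 to 19.1%) of the other regions, and had no listed gene in 1612 of 3430 cases, against 6083 of 13792. Of the 480 chains, 213 held a region over a gene's 5′ end and 99 had no listed gene. Chain regions made up 27.1% of the ESC HEB regions of chromosome 4 and 26.6% of those of chromosome 11, against 9.16% on chromosome 16 and 6.11% on chromosome X. Dense chains could neighbour each other: 62 had another within 50 kb and 104 within 100 kb, while the median distance to the next on the same chromosome was 1264 kb.

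SMAD2/3 in ESCs overlapped 26.3% of the chain regions (903 of 3430, 95% interval 24.9 to 27.8%), against 18.2% of the other ESC HEB regions (17.6 to 18.9%). Over all ESC HEB regions the share was 19.8%. The difference was 8.12 percentage points (6.51 to 9.76). It was 2.73 points (approximate interval 0.777 to 4.72) when the other regions were weighted to the same quintiles of peak height. The difference was in the tallest quintile, heights from 64.3 up, where 54.7% of chain regions and 46.3% of other regions overlapped SMAD2/3, while in the 4 lower quintiles the shares were within 0.711 points of each other. These intervals cover counting error only, and regions of a chain lie side by side and are not independent.

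Seen from the SMAD2/3 list, chain spans, 11.9 Mb of the genome, held 937 of the 4111 ESC SMAD2/3 regions (22.8%) and 29.0% of their tags. Of 480 chains, 72.5% had at least 1 region overlapping ESC SMAD2/3, while 132 chains had none and 88 had it on 50% or more. When the same rule was applied to the ESC SMAD2/3 list it gave 36 dense chains, and 34 of them (94.4%) overlapped a dense HEB chain. Of the 480 HEB chains, 7.08% overlapped such a chain. The remaining 2 SMAD2/3 chains were at Mir715 and at a stretch of chromosome 16 with no listed gene. The 94.4% says little by itself. Because 3414 ESC HEB regions overlapped the list of 4111 ESC SMAD2/3 regions, clusters of SMAD2/3 would mostly fall on clusters of HEB.

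HEB regions of ESC+SB cells overlapped 81.1% of chain regions (79.8 to 82.4%) and 73.3% of the other regions (72.5 to 74.0%), with 74.8% over all. Endoderm HEB overlapped 35.2% of chain regions (33.6 to 36.8%) and 31.4% of the others (30.6 to 32.2%), with 32.1% over all. With weighting to the same quintiles of height, these differences of 7.87 and 3.82 points became 2.01 and 0.891 points. The approximate interval of the weighted Endoderm HEB difference held 0 (-1.34 to 3.14). Endoderm SMAD2/3 overlapped 18.9% of chain regions and 19.0% of the others, with 19.0% over all. Endoderm+SB HEB overlapped 17.3% of chain regions and 17.3% of the others, with 17.3% over all. For both, the interval of the difference held 0, at -1.63 to 1.33 points for Endoderm SMAD2/3 and -1.39 to 1.47 points for Endoderm+SB HEB.

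**Figure D2:**
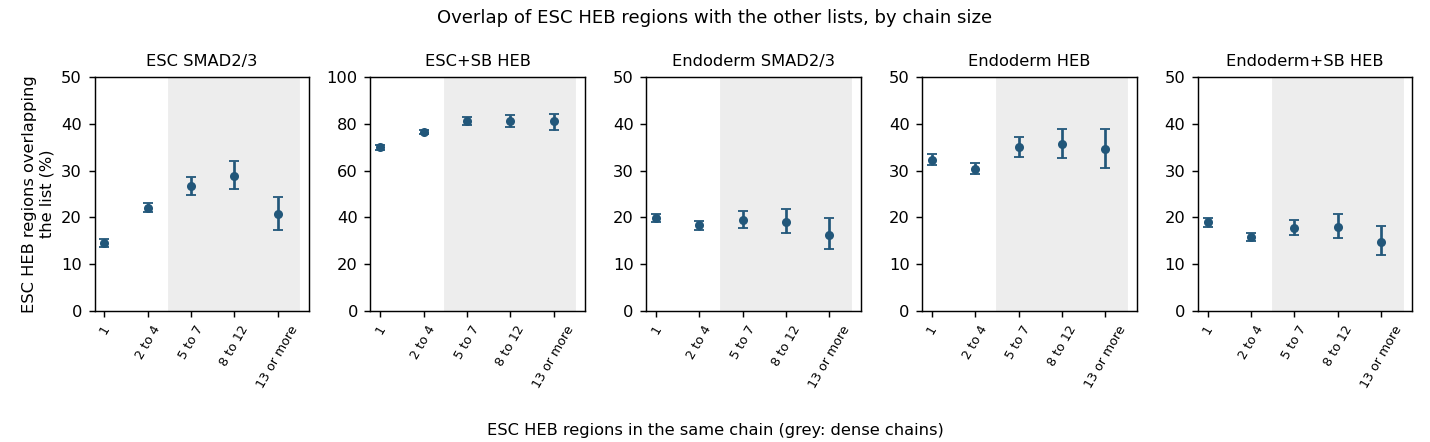
Each panel gives, for 1 other list, the percentage of ESC HEB regions that overlap it, grouped by how many ESC HEB regions their chain holds; grey marks dense chains and bars are exact 95% intervals for counting error. The ESC SMAD2/3 share is 14.4% for lone regions, 28.9% in chains of 8 to 12 and 20.7% in chains of 13 or more, and the vertical scale of the ESC+SB HEB panel runs to 100% where the others run to 50%.

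Larger chains did not always have the larger share. ESC SMAD2/3 overlapped 14.4% of lone regions, 22.0% in chains of 2 to 4, 26.6% in chains of 5 to 7, 28.9% in chains of 8 to 12 and 20.7% in chains of 13 or more. Median peak height was 34.4, 38.9, 44.2, 43.7 and 43.4 in the same 5 classes. The largest class includes 4 Hox chains, with 4 of 130 regions overlapping, while its 26 other chains had 104 of 392 (26.5%, 22.2 to 31.2%).

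Within a chain, the tallest region was the one most often shared. Among the 480 tallest regions, 1 per chain, 56.5% overlapped ESC SMAD2/3, 98.8% ESC+SB HEB, 59.4% Endoderm HEB, 29.0% Endoderm SMAD2/3 and 30.4% Endoderm+SB HEB. Among the 480 lowest regions 24 overlapped ESC SMAD2/3, 257 ESC+SB HEB, 101 Endoderm HEB, 75 Endoderm SMAD2/3 and 59 Endoderm+SB HEB. Median heights were 121 for the tallest and 27.2 for the lowest, against a minimum of 25.0 in the list.

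**Figure D3:**
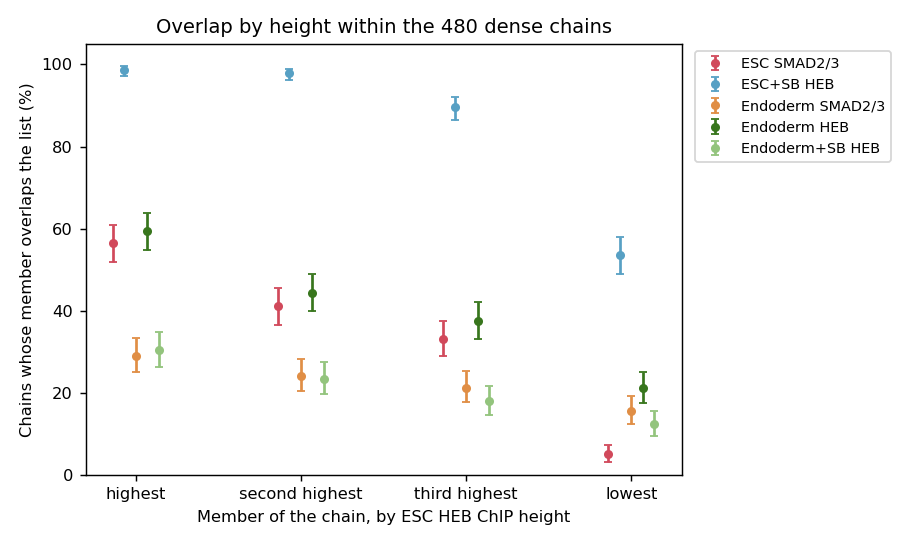
For the 3 highest and the lowest ESC HEB regions of each of the 480 chains, points give the percentage that overlaps each other list and bars the exact 95% interval for counting error. ESC SMAD2/3 falls on 56.5% of the highest regions and on 24 of the 480 lowest.

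Chain regions with ESC SMAD2/3 differed from chain regions without it in what was listed elsewhere. ESC+SB HEB overlapped 93.7% of the 903 regions with SMAD2/3 and 76.7% of the 2527 without, and Endoderm HEB overlapped 38.2% and 34.1%. Endoderm SMAD2/3 overlapped 307 of the 903 regions with ESC SMAD2/3 and 340 of the 2527 without. The same split was seen in ESC HEB regions outside dense chains. There ESC+SB HEB overlapped 87.5% of regions with ESC SMAD2/3 and 70.1% of those without. Endoderm HEB overlapped 35.4% and 30.5% of them, and Endoderm SMAD2/3 35.7% and 15.3%. In chain regions the median ESC HEB height was 80.8 with SMAD2/3 and 38.0 without, and its part in these differences was not tested.

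Whole chains were followed by applying the rule to the other HEB lists. A dense chain of the ESC+SB HEB list overlapped 326 of the 480 chains (67.9%, 63.5 to 72.1%), of the Endoderm HEB list 112 (23.3%, 19.6 to 27.4%) and of the Endoderm+SB HEB list 25 (5.21%). These lists had 414, 292 and 59 dense chains of their own, so 78.7%, 37.7% and 42.4% of theirs overlapped an ESC HEB chain. Length of the lists bears on this. The ESC+SB and Endoderm HEB lists were cut to their tallest 10147 regions, with the ESC HEB list left whole. Of the 480 chains, 35.4% were then still dense in ESC+SB cells and 8.75% in Endoderm. Shortening only the compared lists can only lower these shares. The commonest pattern, in 236 chains (49.2%), was a dense chain with SB431542 in ESCs and none in either endoderm list, and 126 chains (26.2%) were dense in ESC HEB alone. The 14 chains dense in all 4 HEB lists included those at Pax3, Otx1, Bahcc1, Hes1, Gata3, Mllt10, Bmi1, Sox12, Zmynd8, Ahdc1, Tbx3, Tnrc18 and Nr2f2.

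Chains listed for Hox genes, which pattern the body axis, were the largest of all and nearly without SMAD2/3. The Hoxa chain (chr6:52099976-52225419, mm9) had 38 HEB regions over 125 kb, the Hoxb chain (chr11:96111948-96228528) 34 over 117 kb, the Hoxc chain (chr15:102783513-102858797) 33 over 75.3 kb and the Hoxd chain with Evx2 (chr2:74493855-74591732) 25 over 97.9 kb. Smaller chains lay at Hoxb13, with 11 regions, and at Hoxc12 and Hoxc13, with 9. Of the 150 regions in these 6 chains, 6 overlapped ESC SMAD2/3 (4.00%, 1.48 to 8.50%), against 27.3% of the 3280 regions in other dense chains (25.8 to 28.9%). ESC+SB HEB overlapped 141 (94.0%, against 80.5%), and Endoderm HEB 28 (18.7%, against 35.9%). Hox regions were wide, with a median of 1341 bp against 627 bp, and of like height, 45.8 against 43.7. HEB tags in the Hoxb span were 23979 in ESC+SB, 2219 in Endoderm and 562 in Endoderm+SB cells, against 22345 in ESCs. These regions covered 54.3 kb in ESC+SB and 7.75 kb in Endoderm cells, against 51.8 kb in ESCs, at 442, 286 and 431 tags per kb. The Hoxc span gave 19400 tags in ESC+SB and 2230 in Endoderm cells, against 18979 in ESCs. In both chains the tags with SB431542 were thus close to those in untreated ESCs, at ratios of 1.07 and 1.02, and the Endoderm tags were far fewer.

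**Figure D4:**
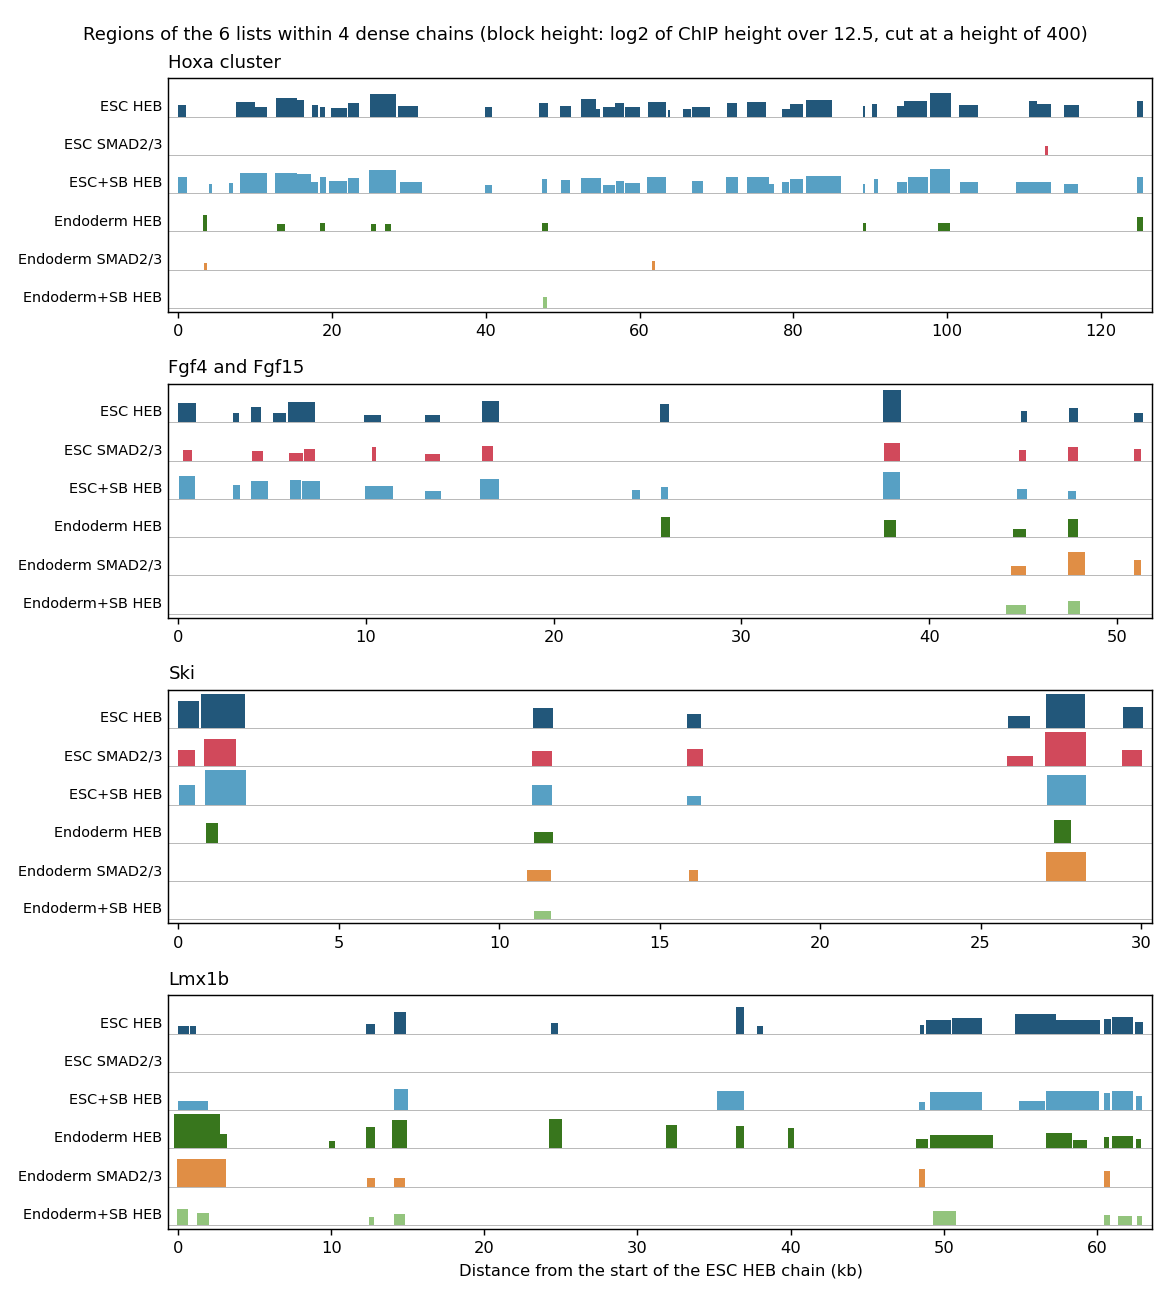
Regions of the 6 lists are drawn to scale within 4 chains, by distance in kb from the start of the ESC HEB chain; block height is log2 of the authors' peak height over 12.5, cut at a height of 400, and very narrow regions are widened to stay visible. The Hoxa chain keeps its HEB regions with SB431542 and has 1 ESC SMAD2/3 region, 10 of 13 Fgf4/Fgf15 regions and 7 of 7 Ski regions overlap ESC SMAD2/3, and 14 of 15 Lmx1b regions overlap Endoderm HEB.

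Other developmental regulators known as Polycomb targets had the same combination of dense HEB and little SMAD2/3. Gene lists here and below were chosen with earlier results of these data known, so their shares are given as descriptions. The list of Polycomb targets also includes Hox genes. Of its 31 genes with an ESC HEB region, 24 had 1 in a dense chain, against 10.4% of all 5506 genes with an ESC HEB region. The 24 are not independent: they fell in 17 chains, since genes of a Hox cluster share a chain, as do Evx2 with Hoxd and Dlx5 with Dlx6. Outside the Hox clusters they fell in 12 chains with 86 regions. Of these regions 0 overlapped ESC SMAD2/3, 73 ESC+SB HEB (84.9%) and 55 Endoderm HEB (64.0%). All chain regions had 26.3, 81.1 and 35.2%, so the ESC+SB HEB share was near that of all. The 12 chains were at Pax2, Pax9, Lhx9, Nkx2-2, Nkx2-1, Lmx1b, Wnt1, Barhl2, Dlx5 with Dlx6, Gata3, Tbx2 and Tbx15. The Pax9 chain had 6 regions, all overlapping both ESC+SB HEB and Endoderm HEB, and the region over its 5′ end had 3582 tags in ESCs. The tallest region overlapping it had 4122 tags in ESC+SB, 1481 in Endoderm and 280 in Endoderm+SB cells. Lmx1b, a LIM-homeodomain gene of limb and midbrain development, had 15 regions in 63.0 kb, and its span held more HEB tags in Endoderm, 11879 over 17.3 kb, than in ESCs, 6236 over 15.7 kb.

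Neural regulators formed a second such group. Of 19 neuroectoderm genes with an ESC HEB region, 11 had 1 in a dense chain (57.9%, against 10.4% of all such genes), among them Sox1, Pax3, Pax6, Pax7, Zic1, Zic2, En2, Six3, Pou3f2 and Lhx2. Their 11 chains held 86 regions, of which 2 overlapped ESC SMAD2/3 (2.33%), 75 ESC+SB HEB (87.2%) and 55 Endoderm HEB (64.0%), where all chain regions had 26.3, 81.1 and 35.2%. In the Six3 chain all 6 regions overlapped both ESC+SB HEB and Endoderm HEB, and in the Lhx2 chain all 5 did. Six3 is a forebrain regulator. Pax7 had a wide region over its 5′ end with 3549 tags in ESCs. The tallest overlapping region had 3272 tags in ESC+SB, 1619 in Endoderm and 221 in Endoderm+SB cells. Summed over the span, HEB tags were 6542 in ESC+SB, 2236 in Endoderm and 912 in Endoderm+SB cells, against 6700 in ESCs.

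Genes of the pluripotent state had dense chains with frequent SMAD2/3. Of 18 pluripotency genes with an ESC HEB region, 11 had 1 in a dense chain (61.1%, against 10.4% of all genes with an ESC HEB region): Pou5f1, Sox2, Esrrb, Tbx3, Prdm14, Nr5a2, Sall4, Dppa5a, Fgf4, Utf1 and Tdh. Nanog, Klf2, Tfcp2l1, Zfp42, Lin28a, Dppa3 and Nr0b1 had HEB regions outside dense chains, and Klf4 and Klf5 had none listed. The 12 chains held 100 regions, of which 53 overlapped ESC SMAD2/3, against 26.3% of all chain regions, and every chain had at least 1. The other lists were near the shares of all chain regions, with 85 for ESC+SB HEB against 81.1%, 37 for Endoderm HEB against 35.2% and 18 for Endoderm+SB HEB against 17.3%. Regions in these chains had a median width of 559 bp, against 1251 bp in the neuroectoderm chains and 1205 bp in the Polycomb-target chains, while median heights were 46.8, 43.3 and 44.3.

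Fgf4, an autocrine growth factor of ESCs, and the neighbouring Fgf15 shared a chain of 13 regions over 51.4 kb (chr7:152036911-152088291), of which 10 overlapped ESC SMAD2/3, the most in any chain. Its tallest region had no listed gene and 1191 tags in ESC+SB, 366 in Endoderm and none listed in Endoderm+SB cells, against 1807 in ESCs. All 8 regions that begin within 16.2 kb of the start of the chain, around Fgf4, lacked an Endoderm HEB region, and 4 of the 5 regions farther on, toward Fgf15, had one. Pou5f1, encoding OCT4, had 6 regions in 24.5 kb, of which 5 overlapped ESC SMAD2/3 and 6 ESC+SB HEB. The tallest had 1224 tags in ESC+SB and 284 in Endoderm cells, against 1141 in ESCs, with 387 SMAD2/3 tags in Endoderm against 812 in ESCs. Nr5a2, an orphan nuclear receptor, had 6 regions within 7.51 kb, 5 with ESC SMAD2/3, and Dppa5a had 10 in 16.5 kb, 7 with ESC SMAD2/3; neither span held an Endoderm or Endoderm+SB HEB region. Sox2 kept more: its 9 regions included 6 with Endoderm HEB and 4 with Endoderm+SB HEB, and its span held 2703 HEB tags over 6.79 kb in Endoderm, against 2223 over 5.06 kb in ESCs. The next dense chain, 63.2 kb beyond the Sox2 chain, had 15 regions and no listed gene (chr3:34633791-34688034). Of these 8 overlapped ESC SMAD2/3, 5 Endoderm HEB and 0 Endoderm+SB HEB.

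Esrrb, an orphan nuclear receptor of the naive ESC state, was listed for 17 HEB regions, 15 of them in 2 dense chains of 9 and 6 regions that lay 13.3 kb apart (chr12:87803960-87820382 and chr12:87833676-87846034). Of the 15, 7 overlapped ESC SMAD2/3, 12 ESC+SB HEB, 3 Endoderm HEB and 0 Endoderm+SB HEB. The tallest, chr12:87842439-87843332, had 3130 tags in ESC+SB cells and no region listed in either endoderm list, against 3167 in ESCs, with 1365 ESC SMAD2/3 tags. Summed HEB tags in the second span were 6020 over 3.92 kb in ESC+SB and 360 over 0.591 kb in Endoderm cells, against 6175 over 4.42 kb in ESCs. Msi2, an RNA-binding protein, was listed for 28 regions spread over 10 chains, with 13 in 2 dense chains of 7 and 6 regions. Of these 13, 5 overlapped ESC SMAD2/3, 9 ESC+SB HEB and 4 Endoderm HEB. Igsf21, an immunoglobulin-domain protein of synapses, was listed for 26 regions, 20 of them in 2 dense chains. The larger of its chains had 18 regions over 88.1 kb, of which 2 overlapped ESC SMAD2/3, 12 ESC+SB HEB and 2 Endoderm HEB. Of these 3 genes, Esrrb thus had the largest share of dense-chain regions with SMAD2/3, at 7 of 15, and Igsf21 the smallest, at 1 of 20. Over all chain regions, 26.3% overlapped ESC SMAD2/3, 81.1% ESC+SB HEB, 35.2% Endoderm HEB and 17.3% Endoderm+SB HEB.

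Nodal and activin pathway genes had SMAD2/3 on 38 of 69 chain regions (55.1%, against 26.3% of all chain regions), in 9 chains, each with at least 1. Of 18 such genes with an ESC HEB region, 8 had 1 in a dense chain (44.4%, against 10.4% of all such genes), among them the ligand antagonist Lefty1, the co-receptor Tdgf1, the inhibitory Smad7, the co-repressors Ski, Skil and Tgif1 and the feedback inhibitor Pmepa1. ESC+SB HEB overlapped 48 of the 69 regions (69.6%, against 81.1%), Endoderm SMAD2/3 29 (42.0%, against 18.9%) and Endoderm HEB 30 (43.5%, against 35.2%). Ski had 7 regions in 30.1 kb, all 7 overlapping ESC SMAD2/3. Its tallest region, chr4:154537212-154538570, had 1526 HEB tags in ESC+SB and 267 in Endoderm cells, against 2867 in ESCs. Ski was 1 of 3 chains with SMAD2/3 on every region, with Gfpt2 and Mir181c/Mir181d. Pmepa1 had chains of 9 and 8 regions, with SMAD2/3 on 8 and on 4.

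Summed HEB tags in each of the 9 Nodal and activin chains were fewer with SB431542, while 152 of all 480 chains had as many or more. Lefty1 had the lowest value: the region over its 5′ end, chr1:182863286-182865640, had 271 HEB tags in ESC+SB and 2654 in Endoderm cells, against 3863 in ESCs, with no region listed in Endoderm+SB cells. Tags of a region in another list are those of the tallest overlapping region over its own called width, and at Lefty1 the peak heights differed less: 110 in ESC+SB and 306 in Endoderm cells, against 449 in ESCs. The authors' ratios of ChIP to background tags there ran the other way, at 40.2 in ESC+SB and 34.5 in Endoderm cells, against 24.3 in ESCs, with 5 background tags in the ESC+SB region. SMAD2/3 tags there were 3192 in Endoderm and 3767 in ESCs. The tallest region was lower in height with SB431542 in 8 of the 9 chains and lower in the authors' ratio in 6, and over all chains, of 474 whose tallest region was listed in ESC+SB cells, in 281 by height and 369 by ratio. Summed over the Lefty1 span, HEB regions held 893 tags over 3.19 kb in ESC+SB cells (280 per kb covered), against 6567 over 5.87 kb in ESCs (1119 per kb), a ratio of 0.136 and the lowest of the 480 chains. For Ski the ratio was 0.484, with 3326 tags over 4.11 kb (810 per kb) in ESC+SB cells against 6870 over 5.59 kb (1229 per kb) in ESCs. For the Pmepa1 chains it was 0.418 and 0.394, for Smad7 0.574, for Skil 0.561, for the Tdgf1 chain 0.846 and for Tgif1 0.938. Tags per covered kb in ESC+SB cells against ESCs were 234 against 395 and 299.7 against 324.4 in the Pmepa1 chains, 357 against 493 for Smad7, 302 against 352 for Skil, 589 against 755 for the Tdgf1 chain and 548 against 502 for Tgif1.

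The median ratio of the 9 Nodal and activin chains was 0.561, against 0.871 over all 480 chains (middle 50%, 0.685 to 1.05), and 7 of the 9 were below the median of all. It was 0.975 over the 12 pluripotency chains, 1.00 over the 11 neuroectoderm chains and 1.05 over the 17 Polycomb-target chains. Of these 17, 13 were at 1 or above, against 152 of all 480 chains. Median tags per covered kb in the Nodal and activin chains were 357 over 4.13 kb in ESC+SB cells and 493 over 5.85 kb in ESCs, and over all chains 424 over 4.23 kb and 449 over 4.58 kb. The 132 chains with no SMAD2/3 had a median ratio of 1.05, the 260 with SMAD2/3 on some but under 50% of their regions 0.805, and the 88 with it on 50% or more 0.814. Since the chains were chosen in the ESC list, a ratio below 1 is favoured by that choice, and need not be so equally in every chain. Tags were not scaled for depth and were summed over called regions only. The smallest height called was 28.0 in the ESC+SB HEB list and 25.0 in the ESC HEB list, so chains of low regions can be affected more. Median ESC HEB height was 80.8 in chain regions with SMAD2/3 and 38.0 in those without. The part of height, depth and calling in the differences between chains was not tested.

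**Figure D5:**
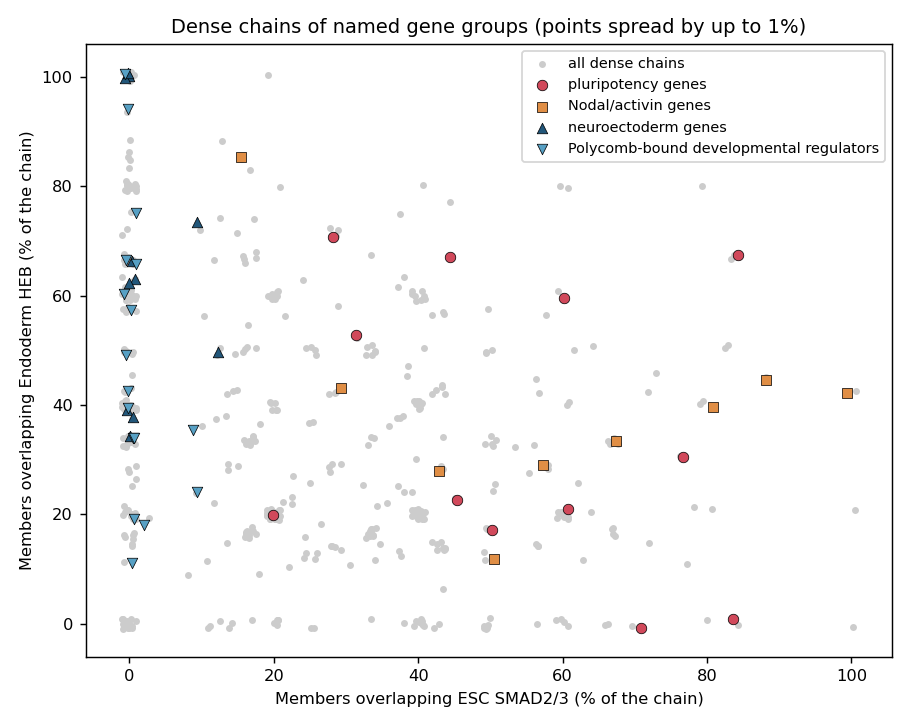
Each point is 1 dense chain, with the percentage of its ESC HEB regions that overlap ESC SMAD2/3 on the horizontal axis and the percentage that overlap Endoderm HEB on the vertical axis; coloured symbols mark chains of 4 gene groups and grey points all chains. Neuroectoderm and Polycomb-bound chains lie at 0 to 12.5% SMAD2/3, and every pluripotency and Nodal/activin chain lies at 15.4% or more.

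Endoderm regulators had dense chains at Foxa2, Gata4, Eomes and Otx2, which are 4 of 12 definitive endoderm genes with an ESC HEB region (33.3%), against 10.4% of all such genes. Their 26 regions included 3 that overlapped ESC SMAD2/3 (11.5%), 24 ESC+SB HEB (92.3%), 17 Endoderm HEB (65.4%) and 12 Endoderm SMAD2/3 (46.2%), where all chain regions had 26.3, 81.1, 35.2 and 18.9%. Foxa2, a forkhead factor of endoderm, had 6 regions in 17.2 kb, all overlapping Endoderm HEB and none ESC SMAD2/3. Its tallest had 366 HEB tags in ESC+SB, 1255 in Endoderm and 223 in Endoderm+SB cells, against 426 in ESCs. Sox17, Gata6, Gsc and 5 others had HEB regions outside dense chains. Of 15 mesoderm genes with an ESC HEB region, Hand2 was the only 1 in a dense chain (6.67%), with 7 regions, 6 of them overlapping Endoderm HEB and 0 ESC SMAD2/3.

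Smaller groups were also read. Of 11 Polycomb complex subunits with an ESC HEB region, Phf19, Aebp2, Bmi1 and Phc1 had dense chains (36.4%, against 10.4% of all such genes). ESC SMAD2/3 overlapped 4 of their 32 regions (12.5%) and Endoderm HEB 16 (50%), against 26.3 and 35.2% of all chain regions. Of 4 E protein and Id factor genes with an ESC HEB region, Id1 and Id2 had dense chains (50%). They encode partners that keep HEB off DNA, and their chains had 13 and 5 regions. HEB tags in the Id2 span were 1780 over 4.91 kb in ESC+SB and 1146 in Endoderm cells, against 943 over 2.87 kb in ESCs. This was the highest ratio with SB431542 of all chains, at 1.89, while tags per covered kb were 363 in ESC+SB cells against 329 in ESCs. The tallest Id2 region went the other way, with a height of 49.2 in ESC+SB cells against 53.0 in ESCs and 191 tags against 214. The authors' ratio there was 7.64 against 15.3. Tcf12, which encodes HEB, had no ESC HEB region listed. Of 7 extraembryonic and trophoblast genes with an ESC HEB region, Cdx2 and Gata3 had dense chains (28.6%). ESC SMAD2/3 overlapped 0 of their 13 regions, of which 8 form the Gata3 chain already counted among the Polycomb targets. Trim71, an RNA-binding regulator of stem cells, had 12 regions in 54.4 kb, with a tallest region of 4149 ESC HEB tags. All 12 were listed in ESC+SB cells, against 81.1% of all chain regions.

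Beyond the gene groups, the chains with most SMAD2/3 after Fgf4/Fgf15 were Epha2 and Adamtsl4/Mcl1 with 9 of 14 regions each, the unlisted stretch beyond Sox2 with 8 of 15, Cdc6/Rara with 8 of 11 and Pmepa1 with 8 of 9. Ski, the Mir290/Mir291a chain (chr7:3193066-3217985) and Tmem51 had 7, as did Dppa5a and the 20-region chain at 6430527G18Rik. In the Mir290/Mir291a chain the 9 regions included 8 with ESC+SB HEB and 2 with Endoderm HEB, and its tallest had 1769 HEB tags in ESC+SB, 891 in Endoderm and 181 in Endoderm+SB cells, against 2048 in ESCs. Epha2, an ephrin receptor, had 3216 summed HEB tags over 6.78 kb in ESC+SB cells, against 7249 over 10.3 kb in ESCs.

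Chains with most regions after the Hox clusters were Ddit4/Dnajb12 with 22, 6430527G18Rik with 20, Tbx3 with 19, and Socs3, Ahdc1 and Igsf21 with 18 each. The longest after these were Capn11/Hsp90ab1 at 71.7 kb, Pim1 at 67.0 kb and the chain of 0610008F07Rik at 64.6 kb. By tags, the Gse1, Tcfap2a and Socs3 chains were among the highest, with 13496, 11129 and 13530 tags, and Socs3 is a target and inhibitor of LIF signalling. HEB tags in the Socs3 span were 8887 over 15.4 kb in ESC+SB and 2225 over 3.12 kb in Endoderm cells, against 13530 over 18.2 kb in ESCs. Chain regions with high ChIP to input tag ratios included 1 in each of the chains of Tulp1 (227), Trim71 (143) and Ubxn11 (135).

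At the extremes of fate, ESC+SB HEB overlapped every region of 142 chains, and those with most tags among chains of 6 or more regions were Hoxb, Trim71, Six3, Lama5 and the Meis2 chain on chromosome 2 with 7198 tags. It overlapped fewest in unlisted chains of chromosomes 11 (2 of 8) and 13 (2 of 6), in Btg2 (3 of 8), Lefty1 (3 of 7) and Dym (3 of 7), although every one of the 480 chains kept at least 1. Endoderm HEB overlapped none of the regions in 57 chains, of which those with most tags among chains of 6 or more regions were Crmp1, Aym1, an unlisted chain of chromosome 4, Hoxc12/Hoxc13 and an unlisted chain of chromosome 15. It overlapped all regions in 10 chains, among them Rtn4rl1, Bahcc1, Dmrt1/Dmrt3 and Tlx1 beside those named above. Endoderm+SB HEB overlapped none in 189 chains and all in 0.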

How the data were processed

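Chromatin of 6 ChIP and 4 input libraries, 1 per group, was sequenced on a Genome Analyzer II, per the labels' protocols. CASAVA 1.8.2 and the mouse build mm9 are named in the submitters' processing notes, while which aligner, peak caller and annotation served was not given in the sources used here. Each deposited list gives for every region its position and, per the file headers, a ChIP tag count and a background tag count, the authors' peak height (a signal whose scaling is not stated) and the ratio of ChIP to background tags. The authors list a gene for a region inside it or within 1 kb, so a region can stand on several lines, and unique regions were used. Whether positions count from 0 or 1 is not stated, and exons and introns were not annotated.

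ESC HEB regions were chained at a gap of at most 12.5 kb and chains of at least 5 kept (Python 3.11.15, pandas 2.3.3, matplotlib 3.10.9). Regions overlapped if they had 1 bp or more in common. Each share carries an exact Clopper-Pearson 95% interval (SciPy 1.17.1), and differences were also standardized over 5 quintiles of peak height. Intervals of differences were combined from those of both shares. For weighted differences the full width of the unweighted interval of the other regions was used, so these intervals are approximate and not exact 95% limits. No test was made, since each group has 1 library. On 2570 simulated regions the procedure recovered 100% of the planted chains' regions and overlaps. The planted gaps lay far from the limit of 12.5 kb, so this checks the code and not gaps near the limit. With bedtools 2.31.1 the number of chains, 480, and the overlap counts were the same. The members and the gene lists were chosen with earlier results of these data known. Chains named in the text are those of the marker genes, of listed genes, and the extremes by size, tags, span, overlap and tag ratio, with ties ordered by tags. A few chains that this rule names are not reported here. Alternatives changed the gap, the minimum size, the height limit, the overlap, the weighting and the regions included.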

Additional observations from a re-analysis of the deposited data

How the results depend on the processing

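No paired analysis was possible because each group has 1 library and the labels carry no replicate numbers. The 480 chains rest on the rule: 3430 regions became 1905 with a gap of at most 6000 bp, 5646 with 25000 bp, 1429 with at least 8 regions a chain and 1049 with the upper 50% of each list by height. Differences from other ESC HEB regions are in percentage points. ESC SMAD2/3 (8.12) became 2.73 with weighting by height and 4.53 by width. ESC+SB HEB (7.87) became 2.01 and 2.54. It became 12.6 with the compared HEB lists at the length of the shortest and ESC HEB uncut, an alternative chosen after seeing the data. Endoderm HEB (3.82) became 0.891 and 0.485, 0.652 at 25000 bp and 5.74 without promoter-proximal regions. Endoderm SMAD2/3 (-0.170) became -2.53 at 6000 bp, -2 by width and 1.98 without promoter-proximal regions, and Endoderm+SB HEB (0.0181) became -2.04 by width and 2.98 without them. Of the 480 chains, 67.9% were dense in ESC+SB cells, against 74.0% at 25000 bp, 59.2% with at least 8 regions and 57.7% with the upper 50%. The share was 35.4% with the ESC+SB list cut to 10147 regions and the ESC HEB list uncut. For Endoderm HEB, 23.3% became 16.4% at 6000 bp, 29.9% at 25000 bp, 16.9% with at least 8 regions and 13.5% with the upper 50%. It became 19.2% when 5 regions anywhere in the span sufficed and 8.75% with the Endoderm list cut likewise. For Endoderm+SB HEB, 5.21% became 8.45% at 25000 bp, 0% with at least 8 regions and 1.84% with the upper 50%. The cause was not tested. The other 37 values stayed close to the reported ones. Leaving out the 6 Hox chains, also chosen after seeing the data, moved none of the 5 differences beyond their counting error. Depth was not varied; the lowest regions of the chains had a median height of 27.2 against a minimum of 25.0 in the list.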
